A study of Macaca mulatta with 8 samples.

Results

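The genes described here encode the ERBB receptors and the neuregulins, and 8 of the 26533 features in the deposited tables belong to them. They are 4 receptor genes (EGFR, ERBB2, ERBB3 and ERBB4) and 4 ligand genes (NRG1, NRG2, NRG3 and NRG4), found by their symbols, and all 8 symbols were present. The family was selected on measured values, namely the ERBB4 level in cone photoreceptors of 1 vector-treated area against untreated retina, so that difference is given as a description without a test. The cells came from retinal punches of 2 male macaques and were sequenced one by one in droplets with a 5′ kit (scRNA-seq), giving 8 libraries. NHP1 (5 years old, given the AAV2-CAG-hRPE65 vector) contributed 1 library per eye that the labels call uninjected. NHP2 (6 years old) contributed 3 areas of each eye: an uninjected area, a bleb of AAV8-GRK1-hRPGR and a bleb of AAV8-GRK1-mScarlet. Fluid injected under the retina raises a local blister, the bleb. CAG is a ubiquitous promoter and GRK1 a photoreceptor promoter, hRPGR stands for human RPGR, whose UMIs appear under the name coRPGR, and mScarlet encodes a fluorescent reporter protein. All eyes received triamcinolone, a corticosteroid, and the left eyes received adalimumab as well, an antibody against TNF. The 6 NHP2 libraries came from 1 animal, so differences between areas or eyes have no replicate animals, and the 2 libraries of a group are both eyes of that animal, so p-values measure only the spread between these libraries.

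ERBB receptors are tyrosine kinases at the cell surface that pair up when a ligand binds. EGFR binds EGF and related ligands. ERBB2 has no ligand of its own and serves as a partner, ERBB3 binds neuregulins but has little kinase activity, and ERBB4 binds neuregulins and signals by itself. Neuregulins are made mostly as membrane-anchored precursors that proteases cut, and neurons and glia use them in synapse formation, migration and survival.

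The libraries held 90634306 to 146519011 UMIs (unique molecular identifiers, each a counted transcript copy), and 9562 to 15080 barcodes per library passed as cells with medians of 4606 to 6036 UMIs. After 8604 cells with high doublet scores had been set aside, 83192 cells formed 62 clusters, of which 37 clusters with 57634 cells took a class name from fixed markers. The 8 genes and the transgenes were left out of the clustering. All detected markers of a class had UMIs in its own cells in every library with at least 20 cells of it (3 libraries for RPE-like cells), except that 1 of 6 horizontal markers was at 0 in at least 1 library. Transgene UMIs were not confined to the areas labelled for them: in NHP2, the right uninjected area had 180 rod-like and 2 cone-like cells with at least 10 coRPGR UMIs, and 478 rod-like and 19 cone-like cells of the left NHP1 library held at least 10 huRPE65 UMIs. Libraries shared 1.39% to 2.16% of their cell barcodes, near the number that random draws of barcodes would share.

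ERBB4 (ENSMMUG00000001674, chromosome 12, 98688163 to 99874927, minus strand, Mmul_10, whole-gene span) had its highest class levels in amacrine-like and bipolar-like cells. Levels are given as CPM, the UMIs of the gene in each 1000000 summed UMIs of a cell class in a library, and they compare cells for 1 gene, not genes with each other. Amacrine-like cells held 610 ± 224 CPM (SD, n = 8 libraries) and bipolar-like cells 454 ± 147 CPM, and these ranges overlapped. The range of the bipolar-like cells, 273 to 712 CPM, lay above that of the cone-like cells, 5.03 to 72.5 CPM. Every other class held at most 41.7 CPM in each library, with means from 4.55 CPM in horizontal-like cells to 17.9 CPM in ganglion-like cells, and neighbours in that order overlapped. Free RNA, measured in barcodes with 100 to 1000 UMIs, held 7.50 to 48.9 CPM, so levels of this size in the low classes cannot be told apart from background.

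Within the bipolar-like cells ERBB4 was nearly a property of 1 cluster. Cluster 27, led by ERBB4, SLIT2, GRIK1 and DSCAM, made up 3.72% of the bipolar-like cells and held 98.1% of their ERBB4 UMIs. Its level was 11924 CPM against 9.10 CPM in all other bipolar-like cells. In the 6 libraries with at least 20 of its cells the level ran from 9988 CPM (right uninjected area) to 16131 CPM (left uninjected area), so the pattern was present in untreated and treated areas alike. The share of bipolar-like cells that fell in cluster 27 ran from 2.42% to 5.04%, and it was higher in the left library than in the right in NHP1 (5.04% against 2.42%), the hRPGR blebs (4.46% against 2.48%) and the mScarlet blebs (4.995% against 2.58%), but not in the uninjected areas (2.86% against 3.53%).

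**Figure D1:**
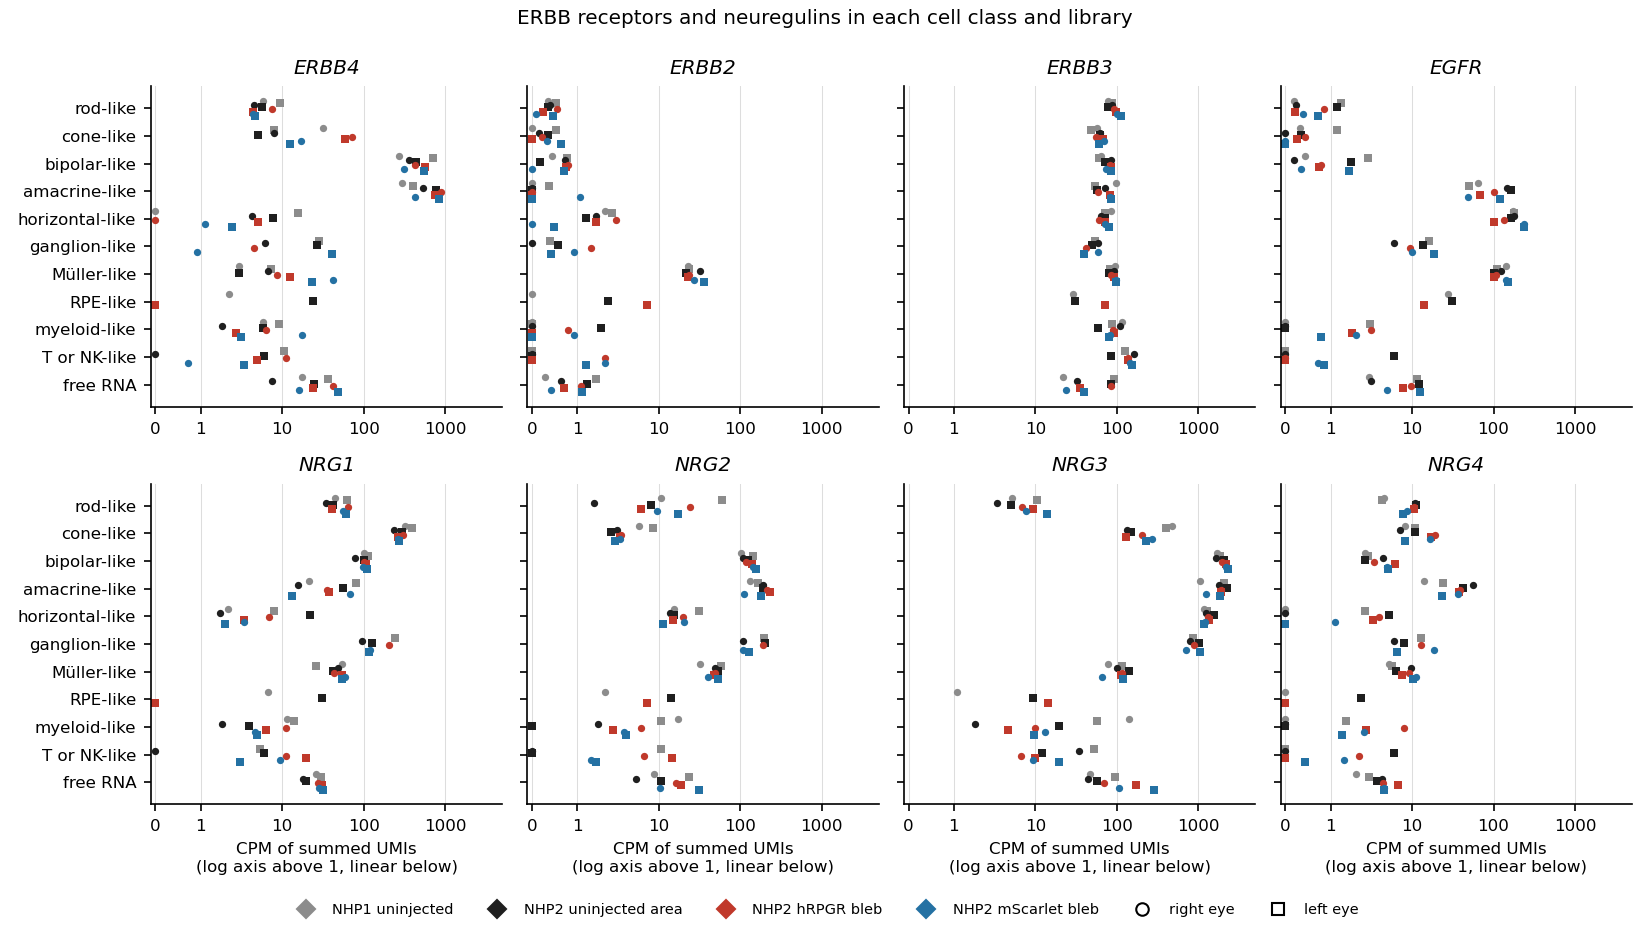
Levels of the 8 genes (panels) in each cell class and in free RNA (vertical axis), as CPM of summed UMIs on an axis that is logarithmic above 1 and linear below. Each point is 1 library with at least 20 cells of the class, colours mark the area and shapes the eye, and the cone-like points of ERBB4 spread from 5.03 to 72.5 CPM while ERBB3 was counted in every class.

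In cone-like cells, ERBB4 stood at 72.5 CPM in the right hRPGR bleb and at 59.1 CPM in the left hRPGR bleb. The uninjected areas of the same eyes held 7.97 CPM (right) and 5.03 CPM (left), and the mScarlet blebs 17.0 CPM (right) and 12.4 CPM (left). The NHP1 libraries held 31.4 CPM (right) and 7.91 CPM (left). Both hRPGR libraries thus lay above the other 6, both mScarlet libraries lay above both uninjected areas of NHP2, and the right NHP1 library lay above both mScarlet blebs. The cone-like cells of the right NHP1 library held no UMI of any of the 3 transgenes. The counts behind these levels were 334 and 229 ERBB4 UMIs in 293 and 189 cone-like cells of the right and left hRPGR blebs, 50 and 29 UMIs in 368 and 427 cells of the uninjected areas, and 102 and 38 UMIs in 275 and 135 cells of the mScarlet blebs. Exact 95% Poisson intervals, which cover counting error only, ran from 51.7 to 80.7 CPM over both hRPGR blebs together and from 3.37 to 20.7 CPM over the other 4 NHP2 libraries.

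With TMM scaling, which corrects for library composition, the group means were 6.73 ± 2.18 CPM (SD, n = 2) in uninjected areas, 67.1 ± 7.69 CPM in hRPGR blebs and 14.1 ± 3.51 CPM in mScarlet blebs. The fitted differences were 3.31 on the log2 scale for hRPGR bleb minus uninjected area, 1.09 for mScarlet bleb minus uninjected area and -2.21 for mScarlet bleb minus hRPGR bleb. They share libraries with the difference that chose the gene and carry no test. Free RNA of ERBB4 in the right eye had the same order of areas, with 41.5 CPM in the hRPGR bleb, 15.9 CPM in the mScarlet bleb and 7.50 CPM in the uninjected area. In the left eye the order differed, with 24.1 CPM in the hRPGR bleb, 48.9 CPM in the mScarlet bleb and 24.4 CPM in the uninjected area, and the part of free RNA in the cone levels was not tested. Rod-like cells, the most frequent class, held 4.33 to 9.42 CPM in all 8 libraries.

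With all cells thinned to 3000 UMIs, an ERBB4 UMI was found in 13.4% of cone-like cells in the right hRPGR bleb (exact Clopper-Pearson interval 9.48 to 18.1) and in 9.04% in the left (5.36 to 14.1). The shares were 2.25% and 1.43% in the right and left uninjected areas and 4.10% and 1.49% in the mScarlet blebs. The NHP1 libraries held 5.88% (3.08 to 10.0, right), an interval that overlapped that of the left hRPGR bleb, and 2.48% (left). Shallower cells were left out, and the unthinned shares were 26.3% and 22.8% in the hRPGR blebs, 8.97% and 6.32% in the uninjected areas and 13.1% and 14.8% in the mScarlet blebs, at median depths of 13152 to 23857 UMIs. Rod-like cells, thinned to the same depth from medians of 4813 to 7260 UMIs, had shares of 1.104% to 2.18%. The intervals cover the counting of cells within 1 library only, and as the hRPGR values chose the gene, these shares are a description.

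**Figure D2:**
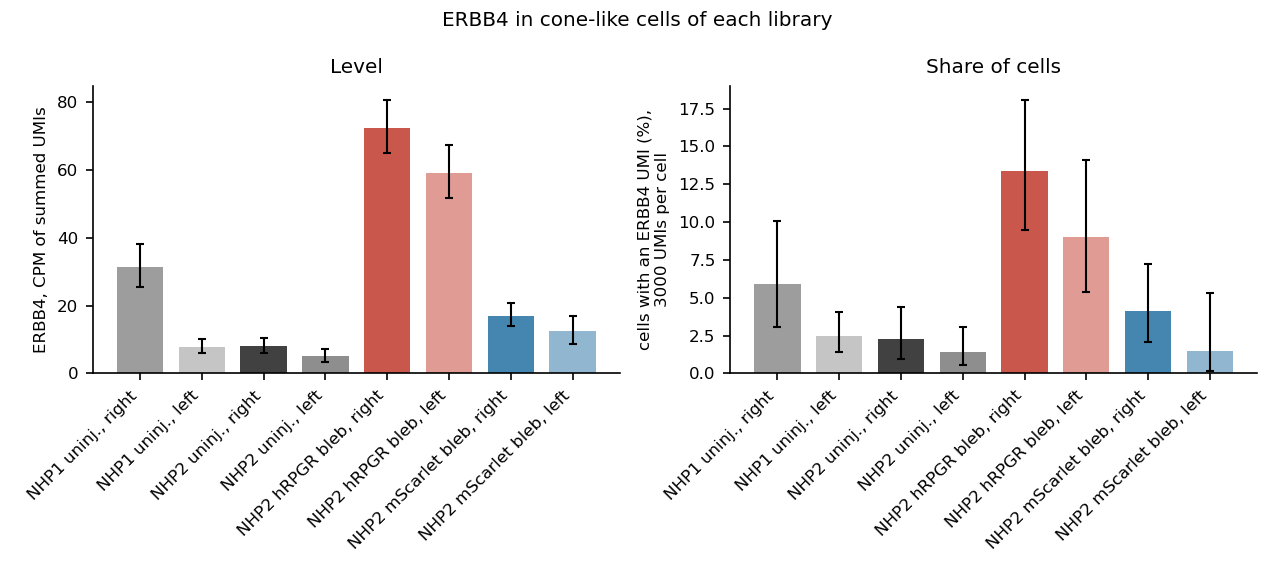
ERBB4 in cone-like cells of each library, as CPM of summed UMIs (left) and as the percent of cells with an ERBB4 UMI after thinning to 3000 UMIs (right). Bars are libraries, dark for right and pale for left eyes, and lines are exact 95% Poisson (left) or Clopper-Pearson (right) intervals; both hRPGR blebs stand above all other libraries in level.

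The ERBB4 UMIs were unevenly spread over cone-like cells. The 10% of cells with the most held 78.1% of the UMIs in the right hRPGR bleb and 82.1% in the left, with up to 35 and 23 UMIs in 1 cell. Cells with at least 2 ERBB4 UMIs, a limit chosen after seeing the data, numbered 48 and 29 in the hRPGR blebs, 10 and 2 in the uninjected areas, 9 and 8 in the mScarlet blebs and 21 and 4 in the NHP1 libraries. In the right hRPGR bleb these cells held summed cone markers at 9993 CPM against 10982 CPM in cells without an ERBB4 UMI, bipolar markers at 19.1 against 34.8 CPM and amacrine markers at 95.4 against 90.0 CPM. In the left hRPGR bleb the same sums were 13628 against 14512 CPM, 18.7 against 9.16 CPM and 52.8 against 68.9 CPM. The ERBB4-rich cells therefore carried cone markers at a slightly lower level than cone-like cells without an ERBB4 UMI, and median doublet scores of 0.0711 and 0.0433 against 0.0804 and 0.0455. Cells with at least 5 ERBB4 UMIs held cone markers at 9101 CPM in the right and 12153 CPM in the left hRPGR bleb. Of the 9 other genes that lead the ERBB4-rich bipolar cluster 27, 7 stayed at or under 7.92 CPM in the cone-like cells of every library, FGF14 ran from 6.197 to 32.1 CPM and KCNB2, which also leads the cone-like clusters, from 4227 to 5405 CPM. In the unnamed cluster 31, which is rich in ERBB4 as well, CACNA2D3 is a leading gene, and in cone-like cells it stood at 87.7 and 39.0 CPM in the right and left hRPGR blebs, 25.2 and 60.6 CPM in the uninjected areas and 123 and 140 CPM in the mScarlet blebs.

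Over all cone-like cells, 8 of the 10 listed cone markers were found and summed to 10717 to 14252 CPM in the hRPGR blebs and 12091 to 15396 CPM in the uninjected areas. The 9 bipolar markers found summed to 12.4 to 29.3 CPM in the hRPGR blebs, within the 16.1 to 42.0 CPM of the uninjected areas or below, with 3 or 4 of them at 0. The 8 amacrine markers summed to 65.1 to 89.8 CPM in the hRPGR blebs, 78.5 to 81.3 CPM in the mScarlet blebs and 44.8 to 56.8 CPM in the uninjected areas, and their part in the ERBB4 level was not tested. The level among the cells with the lower doublet scores in each library was 69.1 and 54.3 CPM in the right and left hRPGR blebs, against 7.41 and 4.64 CPM in the uninjected areas.

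By cluster, the difference between areas was present within cluster 28, where ERBB4 reached 151 and 143 CPM in the right and left hRPGR blebs against 7.87 and 5.96 CPM in the uninjected areas, with 64.3 CPM in the right mScarlet bleb. The left mScarlet bleb had 0 ERBB4 UMIs in 15 cells of cluster 28, which allows up to 14.95 CPM. In cluster 56, the largest cone-like cluster in NHP2, the levels were 49.4 and 47.8 CPM in the hRPGR blebs, 7.77 and 4.85 CPM in the uninjected areas and 14.4 and 13.6 CPM in the mScarlet blebs. In cluster 2 the right hRPGR bleb held 9.83 CPM (2.68 to 25.2), against 10.2 CPM in the right uninjected area, and its 58 cells there had a median of 2893 UMIs against 16576 in cluster 28.

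Cones are classed by opsin, the light-absorbing protein, into S and L/M cones. L/M cones of the hRPGR blebs held 71.2 CPM (63.1 to 80.1, right) and 63.2 CPM (55.3 to 72.0, left), against 8.0 and 5.36 CPM in the uninjected areas and 19.5 and 12.4 CPM in the mScarlet blebs. The 22 S cones of the right hRPGR bleb held 7.05 CPM (1.45 to 20.6), against 7.50 CPM in the 32 S cones of the right uninjected area, and in the left hRPGR bleb S cones were too few to give a level. The right hRPGR bleb had another 33 cone-like cells that, with under 5 opsin UMIs and a median of 3401 UMIs, held 198 CPM (148 to 259). The order of the areas was thus seen in L/M cones, and S cones were few.

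Transgene UMIs and ERBB4 in the same cell had no common direction over the 4 blebs. The Poisson intervals here and above count each UMI as independent and leave out the spread between cells. In the left hRPGR bleb 10% of the cone-like cells held 82.1% of the ERBB4 UMIs, so intervals for few cells are too narrow. In that bleb, the 33 cone-like cells with at least 10 coRPGR UMIs held 13.8 CPM (6.61 to 25.3), while the 156 cells under that limit held 69.6 CPM (60.7 to 79.4). In the right hRPGR bleb 282 of 293 cone-like cells had at least 10 coRPGR UMIs and held 72.4 CPM, against 83.7 CPM (17.3 to 245) in the other 11. In the right mScarlet bleb cells with at least 10 mScarlet UMIs held 11.6 CPM (7.45 to 17.3) against 19.9 CPM (15.7 to 24.8) in the others, and in the left 14.2 CPM (8.66 to 21.9) against 10.8 CPM (6.42 to 17.1). The level was similar in left-eye cones with few coRPGR UMIs and in right-eye cones with many, and the part of the transgene in the ERBB4 level was not tested.

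**Figure D3:**
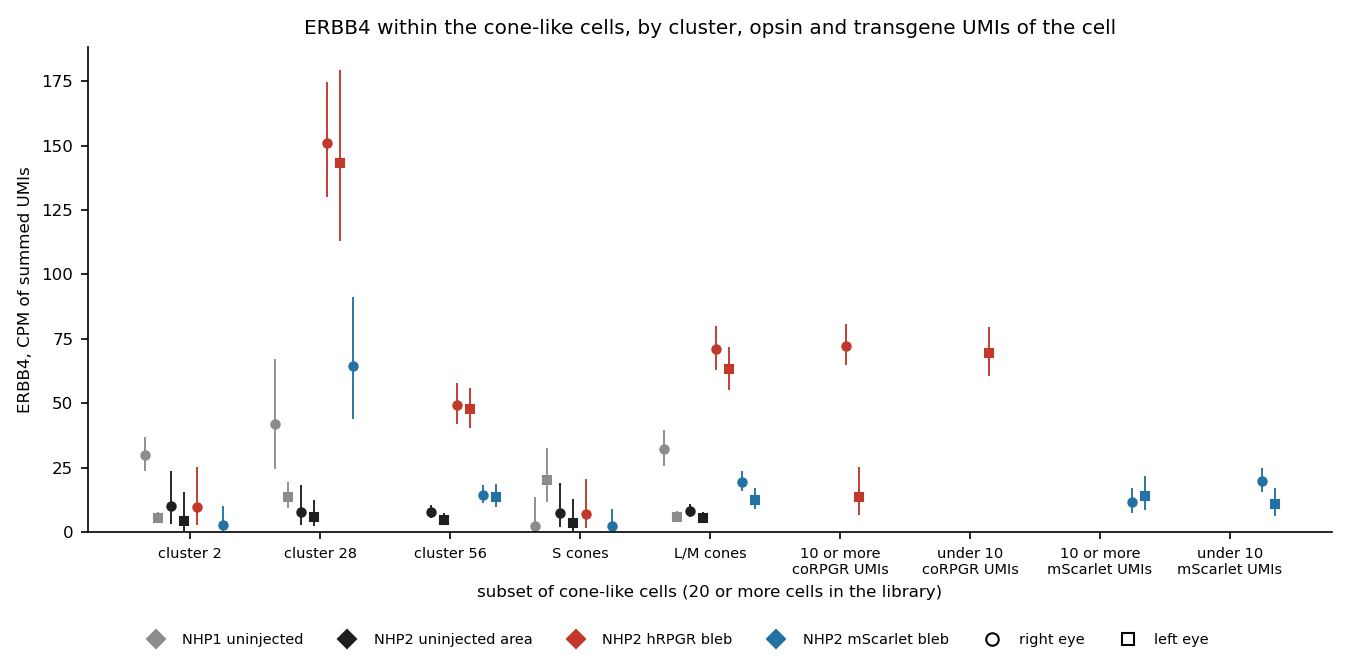
ERBB4 level (vertical axis, CPM of summed UMIs) in subsets of the cone-like cells (horizontal axis) with at least 20 cells in a library. Points are libraries with exact 95% Poisson intervals, and the hRPGR blebs stand apart in clusters 28 and 56 and in L/M cones, but not in cluster 2, in S cones or in left-eye cells with at least 10 coRPGR UMIs.

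Over the 8 libraries, the cone-like genes whose log2(CPM + 1) followed ERBB4 most closely among 10801 genes were CSRNP2 (Pearson r = 0.95), DNMT3A (0.95), LLGL1 (0.94), PPP1CB (0.94) and CREBBP (0.93), and their own levels moved far less. DNMT3A, a DNA methyltransferase, ran from 116 to 158 CPM, with 158 and 147 CPM in the right and left hRPGR blebs and 125 and 119 CPM in the uninjected areas. Over the 10 named classes, KCNA5 (r = 0.97), SCGN (0.97), PCDH8 (0.96), AMIGO2 (0.96) and ENSMMUG00000049130 (0.96) followed ERBB4 most closely among 16990 genes. These correlations are descriptions over points that share depth and preparation.

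Müller glia-like cells gave the largest tested log2 difference between areas among the 8 genes. Their TMM-scaled levels were 6.94 CPM (right) and 2.93 CPM (left) in the uninjected areas, 8.73 and 12.7 CPM in the hRPGR blebs and 40.3 and 22.5 CPM in the mScarlet blebs, so the mScarlet libraries did not overlap the others. The NHP1 libraries held 2.97 and 7.26 CPM before TMM scaling. The log2 difference of mScarlet bleb minus uninjected area was 2.78 ± 0.46 (SE), 3.42 without the right uninjected library and 2.17 without the left, and its adjusted p by the edgeR quasi-likelihood test was 0.0869, which missed the threshold of 0.05, beside an unadjusted p of 0.000719 and a DESeq2 adjusted p of 1.19e-05. The edgeR adjusted p for hRPGR bleb minus uninjected area (log2 1.23 ± 0.49, with 0.62 to 1.87 when 1 library was left out) was 0.9999, and for mScarlet bleb minus hRPGR bleb (log2 1.55 ± 0.42) it was 0.327. Over 13 alternatives the adjusted p of the mScarlet and uninjected difference ran from 1.19e-05 to 0.542 and passed in 2, DESeq2 and the fit without the right uninjected library (adjusted p 0.0319).

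More Müller-like cells had an ERBB4 UMI in the mScarlet blebs, but most of the UMIs lay in few of them. Of these cells 12.6% in the right and 6.05% in the left mScarlet bleb had an ERBB4 UMI, against 1.89% to 4.33% in the other 6 libraries, and after thinning the shares were 7.20% and 4.14% against 0.479% to 2.68%. In the right mScarlet bleb 47 of 744 cells had at least 2 ERBB4 UMIs and held 175 of the 222 UMIs, and in the left 24 of 958 cells held 91 of 125. These 47 cells held Müller markers at 33205 CPM against 29428 CPM in cells of that library without an ERBB4 UMI, bipolar markers at 367 against 321 CPM and a median doublet score of 0.0610 against 0.0424. The 24 cells of the left held Müller markers at 29244 against 30245 CPM, bipolar markers at 555 against 323 CPM and a doublet score of 0.0789 against 0.0563. Both sets were deeper than the cells without an ERBB4 UMI, with medians of 11754 against 4028 UMIs (right) and 10483.5 against 3675 (left). The part of depth was not tested. Of the 24, the 6 cells with at least 5 UMIs, also a limit chosen after seeing the data, held Müller markers at 17982 CPM, bipolar markers at 652 CPM and a doublet score of 0.107, and the 8 such cells of the right mScarlet bleb held 32489 CPM, 463 CPM and 0.0573. Different clusters held the class in different libraries, with clusters 44 and 23 the most frequent in the mScarlet blebs, the right hRPGR bleb and the right uninjected area and clusters 13 and 20 in the left uninjected area. In cluster 44 the levels were 39.1 and 19.6 CPM in the right and left mScarlet blebs against 9.05 CPM in the right uninjected area and 3.35 and 24.9 CPM in the right and left hRPGR blebs. In cluster 23 they were 12.4 and 6.75 CPM in both mScarlet blebs, against 6.33 and 2.88 CPM in hRPGR blebs and 0.808 and 6.08 CPM in the uninjected areas. In cluster 15 they were 226 and 137 CPM in both mScarlet blebs, against 71.3 and 50.2 CPM in hRPGR blebs and 18.5 CPM in the left uninjected area. The 9 bipolar markers found summed to 334 to 336 CPM in Müller-like cells of the mScarlet blebs and to 285 to 300 CPM in the uninjected areas, the 8 amacrine markers to 213 to 241 against 250 to 302 CPM, and their part was not tested. Free RNA of ERBB4 was 48.9 CPM in the left mScarlet bleb, above the Müller-like level of 22.9 CPM there, and 15.9 CPM in the right, below the Müller-like level of 41.7 CPM, and its part was not tested.

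EGFR (ENSMMUG00000022394, chromosome 3, 60060391 to 60254099, minus strand), the receptor for EGF, was found in horizontal-like cells at 175 ± 46.3 CPM (SD, n = 8), Müller-like cells at 123 ± 20.2 CPM and amacrine-like cells at 94.8 ± 44.2 CPM, with overlapping ranges. Ganglion-like cells held 6.06 to 18.6 CPM. Rod-like, cone-like and bipolar-like cells held at most 2.90 CPM, at or below the free RNA level of 2.997 to 12.7 CPM. In horizontal-like cells the TMM-scaled levels were 186 and 162 CPM in the right and left uninjected areas, 135 and 104 CPM in the hRPGR blebs and 243 and 233 CPM in the mScarlet blebs, and the 3 areas did not overlap. The log2 difference of mScarlet bleb minus hRPGR bleb was 0.98 ± 0.20, with an edgeR unadjusted p of 0.000657 and an adjusted p of 0.549 (0.00266 to 1 over 13 alternatives, of which 4 passed). Among Müller-like cells, cluster 15 held a mean of 331 CPM.

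ERBB2 (ENSMMUG00000001348, chromosome 16, 50821197 to 50860918, plus strand), the partner receptor, stood apart in Müller-like cells, with 21.6 to 36.1 CPM in the 8 libraries and a mean of 26.2 ± 5.23. Every other class held at most 7.08 CPM, and free RNA 0.283 to 1.70 CPM. ERBB2 overlaps MIEN1 on the other strand, and whether the counting used strand is not given in the sources used here. Its TMM-scaled Müller levels in mScarlet blebs, 26.1 and 35.5 CPM, overlapped those of the uninjected areas, 33.2 and 21.7 CPM.

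ERBB3 (ENSMMUG00000020758, chromosome 11, 55640936 to 55662914, plus strand), a neuregulin receptor, was counted in all classes. Class means ran from 43.4 CPM in RPE-like cells to 135 CPM in T or NK-like cells, and each neighbour in that order overlapped, whereas the T or NK-like cells, at 84.9 to 161 CPM, lay above the cone-like cells, at 48.4 to 68.8 CPM. In RefSeq, PA2G4 begins 822 bases beyond the end of ERBB3 on the same strand, and PA2G4 is not among the symbols of the files. ERBB3 values are therefore reported as uncertain, since UMIs of the neighbour could be counted with them.

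NRG1 (ENSMMUG00000000208, chromosome 8, 31967813 to 33107858, plus strand, overlapping LOC114680222 on the same strand), the best known neuregulin, had its highest mean in cone-like cells at 292 ± 49.8 CPM (SD, n = 8). The library values were 321 and 395 CPM in NHP1 right and left, 234 and 294 CPM in the uninjected areas of NHP2, 301 and 262 CPM in the hRPGR blebs and 262 and 268 CPM in the mScarlet blebs. Ganglion-like cells (150 ± 57.3 CPM, n = 6) and bipolar-like cells (101 ± 10.5 CPM) followed, the first with a range that overlapped that of cone-like cells, and rod-like cells held 34.6 to 64.6 CPM. Several unnamed clusters that scored highest for rod markers held more, with means of 204 CPM in cluster 54, 178 CPM in cluster 58 and 177 CPM in cluster 19. Clusters 8, 43 and 39 held 165, 136 and 126 CPM, and the other such clusters ranked lower. Cone-like clusters 56 and 2 held means of 234 and 218 CPM. The areas overlapped in cone-like cells, with a log2 difference of 0.07 ± 0.13 for hRPGR bleb minus uninjected area (edgeR adjusted p 0.9495) and -0.11 ± 0.13 for mScarlet bleb minus uninjected area (adjusted p 0.741). Within the cones cluster 28, in which ERBB4 was highest in hRPGR blebs, held 441 to 677 CPM of NRG1 against 204 to 258 CPM in cluster 56. Among bipolar-like cells cluster 7 held 40.1% of the NRG1 UMIs at 421 CPM against 67.3 CPM in the others.

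NRG2 (ENSMMUG00000010301, chromosome 6, 137240154 to 137439953, minus strand), a second neuregulin with its own gene, was highest in amacrine-like (175 ± 39.3 CPM), ganglion-like (155 ± 45.3 CPM, n = 6) and bipolar-like cells (129 ± 19.1 CPM), and Müller-like cells held 32.1 to 57.1 CPM. Rod-like cells varied between libraries, with 10.5 and 58.9 CPM in NHP1 right and left, 1.62 and 8.04 CPM in the uninjected areas, 24.0 and 6.05 CPM in the hRPGR blebs and 9.43 and 17.1 CPM in the mScarlet blebs. The library with the highest rod level was the left NHP1 library, where rod-like cells without a huRPE65 UMI held 65.3 CPM (61.0 to 69.7) and those with at least 10 held 46.0 CPM (39.5 to 53.3). In the left hRPGR bleb, rod-like cells without a UMI of its own transgene held 7.67 CPM and those with at least 10 held 5.21 CPM. The same pair was 10.6 and 24.9 CPM in the right hRPGR bleb. It was 9.48 and 11.9 CPM in the right mScarlet bleb and 18.2 and 25.5 CPM in the left. The intervals of the pair overlapped in each of these blebs, so no direction is read from them. The 10.6 CPM rested on 3 UMIs in 85 cells, and the 11.9 and 25.5 CPM on 13 and 14 UMIs. Free RNA of NRG2 was 8.76 and 23.4 CPM in NHP1, 5.32 and 10.6 CPM in the uninjected areas, 16.2 and 18.5 CPM in the hRPGR blebs and 10.3 and 31.4 CPM in the mScarlet blebs, and its part in the rod levels was not tested.

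NRG3 (ENSMMUG00000017380, chromosome 9, 55104206 to 56224856, minus strand, with 4 overlapping annotated genes), a neuregulin expressed mainly in the nervous system that binds ERBB4, had its highest class means in inner retinal neurons. Bipolar-like cells held 1985 ± 245 CPM, amacrine-like cells 1749 ± 401 CPM, horizontal-like cells 1277 ± 128 CPM and ganglion-like cells 887 ± 135 CPM (n = 6). Bipolar-like clusters differed: cluster 16, with 28.2% of these cells, held a mean of 283 CPM and the others 1255 to 3690 CPM. Cone-like cluster 28 held a mean of 497 CPM. In cone-like cells the libraries of NHP1 held 472 and 395 CPM, above all 6 NHP2 libraries, which ran from 129 to 267 CPM. The TMM-scaled cone levels were 137 and 152 CPM in the right and left uninjected areas, 201 and 135 CPM in the hRPGR blebs and 259 and 212 CPM in the mScarlet blebs. The mScarlet blebs lay above all other NHP2 libraries, and the log2 difference to the uninjected areas was 0.71 ± 0.19 with an edgeR adjusted p of 0.106 (0.000259 to 0.382 over 14 alternatives, of which 5 passed, among them DESeq2 at 0.0258). Rod-like cells lay in different clusters by area. The clusters were formed from variable genes, without the ERBB and neuregulin genes and the transgenes. Clusters 9, 45 and 55 held 25.3%, 28.9% and 37.9% of these cells in the uninjected areas and 0.133%, 0% and 0.0095% in the mScarlet blebs, while clusters 42, 46 and 51 held 0.0116%, 0.186% and 0.174% against 19.2%, 27.5% and 28.6%. In rod-like cells the TMM-scaled levels were 3.64 and 5.16 CPM, 6.63 and 9.62 CPM, and 7.42 and 12.98 CPM in the same order, and the mScarlet and uninjected areas differed by 1.22 ± 0.33 on the log2 scale, with an edgeR adjusted p of 0.0986 (0.0125 to 0.552 over 13 alternatives, of which 2 passed). Free RNA held 44.7 to 282 CPM of NRG3, above all of these rod levels. That range also takes in the cone-like levels of the NHP2 libraries, and the part of free RNA in them was not tested.

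NRG4 (ENSMMUG00000020882, chromosome 7, 53137694 to 53258966, minus strand), an ERBB4 ligand, was low throughout, with 34.1 ± 13.0 CPM in amacrine-like cells, 12.2 ± 4.62 CPM in cone-like cells and at most 18.4 CPM in any library of the other classes. In cone-like cells the TMM-scaled levels were 7.45 and 11.3 CPM in the right and left uninjected areas, 18.9 and 17.8 CPM in the hRPGR blebs and 16.2 and 7.61 CPM in the mScarlet blebs. The hRPGR blebs lay above the other 4 libraries, with a log2 difference to the uninjected areas of 0.98 ± 0.33 and an edgeR adjusted p of 0.603. In rod-like cells the levels were 11.8 and 11.3 CPM, 10.0 and 10.7 CPM, and 8.52 and 7.39 CPM in the same order, and the mScarlet blebs lay below both other areas, with a log2 difference of -0.54 ± 0.13 to the uninjected areas and an edgeR adjusted p of 0.0760 (0.0397 to 0.501 over 13 alternatives, of which 1 passed). The rod-like cells of these areas lay in different clusters, as given above, and NRG4 stood at 12.4 CPM in cluster 55 against 7.87 CPM in the other rod-like cells. In cluster 50, the rod-like cluster with the most UMIs among those with at least 10 cells in all 6 NHP2 libraries, it stood at 15.1 and 3.68 CPM in the uninjected areas, from 4 and 3 UMIs, and at 10.9 and 9.57 CPM in the mScarlet blebs, which overlapped. In cluster 41 NRG4 stood at 18.8 and 14.7 CPM, from 1 and 2 UMIs, against 11.8 and 9.76 CPM, without overlap. Cluster 11 held at most 3 NRG4 UMIs in a library.

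**Figure D4:**
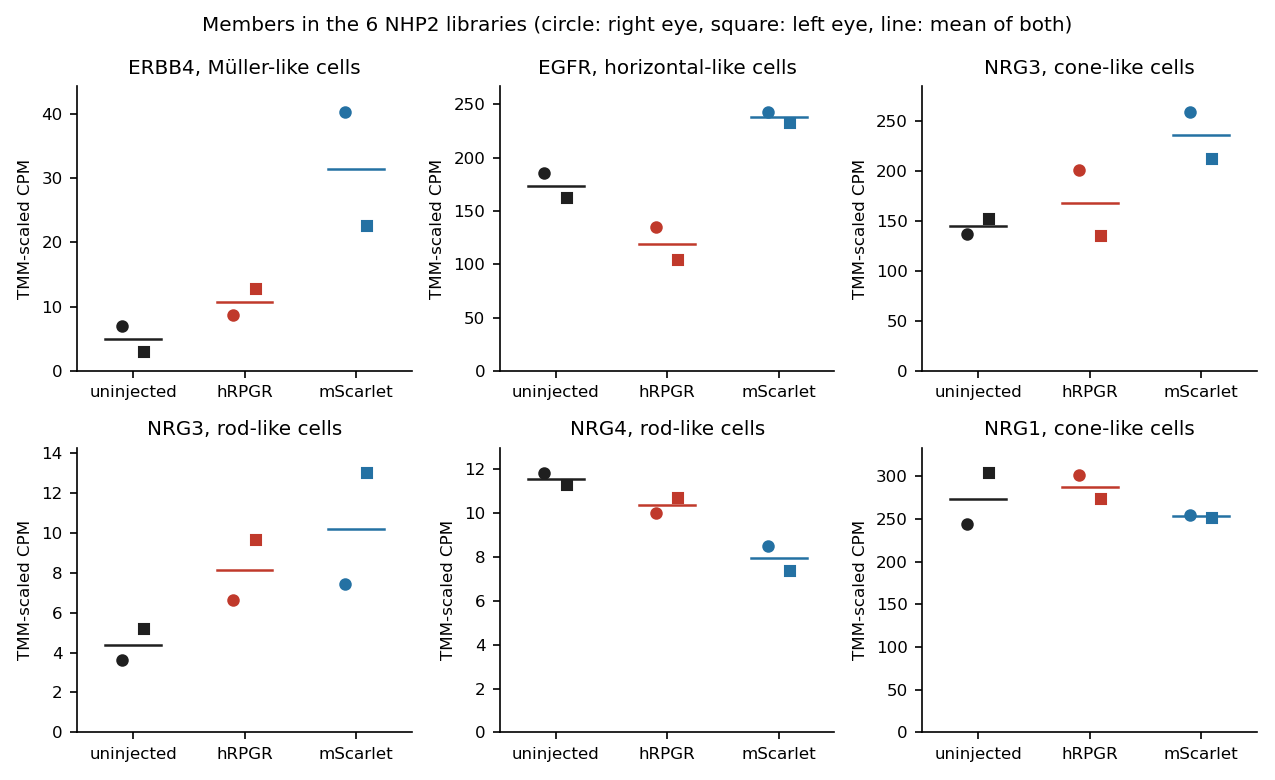
TMM-scaled CPM (vertical axes, from 0) of 6 gene and class pairs in the uninjected areas, hRPGR blebs and mScarlet blebs of NHP2 (horizontal axes). Circles are right eyes, squares left eyes and lines the mean of both; ERBB4 in Müller-like cells and NRG3 in cone-like cells are highest in the mScarlet blebs, and NRG1 in cone-like cells overlaps between areas.

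The areas of NHP2 were then compared for every gene in 8 classes with edgeR on UMIs summed per library and class, in which fewer cells of a kind within a class and less RNA per cell cannot be told apart. For hRPGR bleb minus uninjected area, 0 of the 43 gene and class pairs of the family that passed the filter on low counts and were not chosen by their value had an adjusted p under 0.05, against 0.0202% of all gene and class pairs. At an unadjusted p under 0.05 there were 5 (4.49% of all), namely NRG3 in rod-like, NRG4 in cone-like and ERBB4 in Müller-like cells, which were higher, and EGFR in amacrine-like and horizontal-like cells, which were lower. DESeq2 called 0 of 53 pairs, against 0.17% of all. The right and left hRPGR libraries were unlike, with coRPGR at 12453 and 389 CPM in their cone-like cells. Clusters 9, 45 and 55, frequent among rod-like cells of the uninjected areas, held 54, 13 and 35 of 5287 rod-like cells in the right. In the left they held 1074, 650 and 1160 of 4597. For mScarlet bleb minus uninjected area, edgeR called 0 of 43 pairs (1.02% of all) and 8 at an unadjusted p under 0.05 (14.5% of all). DESeq2 called 4 of 44 pairs (3.19% of all), with NRG3 in rod-like and cone-like cells and ERBB4 in Müller-like cells higher and NRG4 in rod-like cells lower. For mScarlet bleb minus hRPGR bleb, edgeR called 0 of 43 pairs (0.178% of all) and 5 at an unadjusted p under 0.05 (8.04% of all), and DESeq2 called 0 of 54 (0.471% of all).

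Left and right eyes, which differed in adalimumab, gave 0 of 43 pairs by edgeR (0.0112% of all), 3 at an unadjusted p under 0.05 (2.29% of all) and 0 of 56 by DESeq2 (0.0461% of all). ERBB4 in cone-like cells, whose level had chosen the gene, was not tested and had a log2 difference of -0.41 (left minus right). The 3 were NRG3 in rod-like cells (log2 left minus right 0.62 ± 0.13, edgeR adjusted p 0.9999) and ERBB4 in bipolar-like (0.48 ± 0.11, adjusted p 0.613) and myeloid-like cells (-1.71 ± 0.59, adjusted p 0.9997, and -0.30 without the left mScarlet library). The ERBB4 UMIs of the bipolar-like cells lay mostly in cluster 27, whose share differed between eyes as given above. NRG2 in rod-like cells had a log2 difference between eyes of 0.33 ± 0.78 (edgeR adjusted p 0.9999) and passed the test only in the fits without 1 hRPGR library, with a log2 difference of 1.37 and an adjusted p of 0.0101 without the right one and 1.33 and 0.0111 without the left one.

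**Figure D5:**
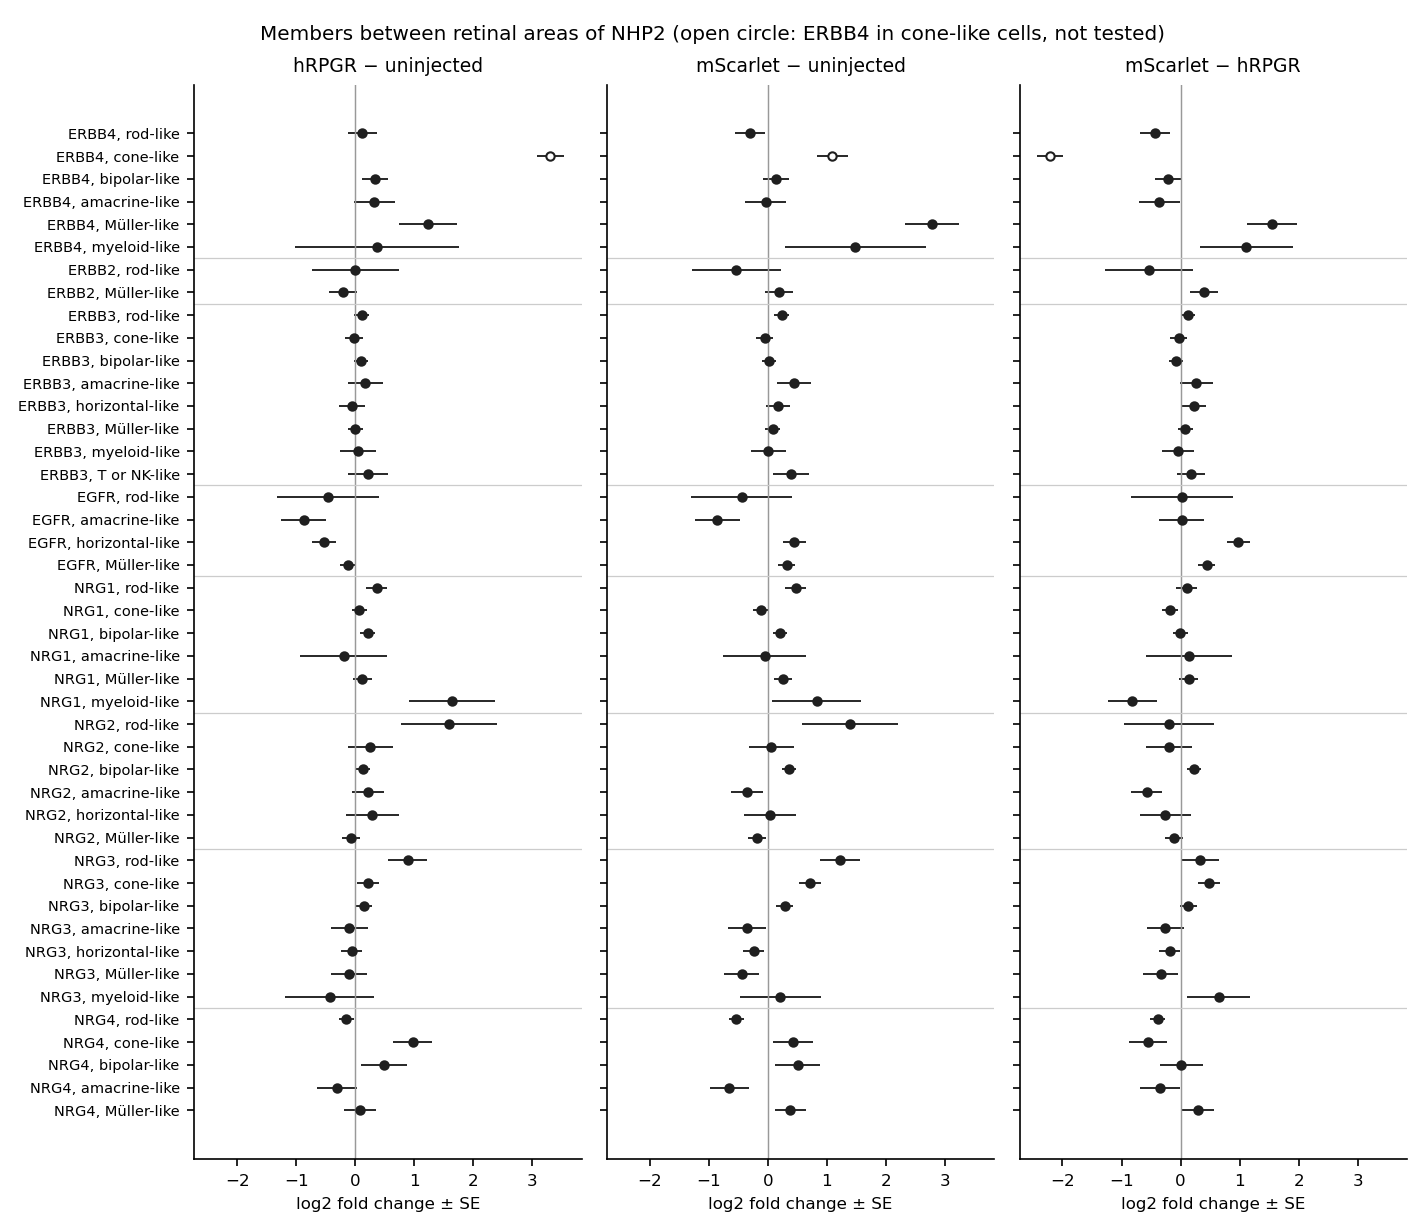
Log2 fold changes with SE (horizontal axes) of each gene in each class where it passed the filter on low counts, for the 3 pairs of areas in NHP2. No filled point passed an edgeR adjusted p of 0.05, and the open circle is ERBB4 in cone-like cells, which was not tested and reaches 3.31 in hRPGR bleb minus uninjected area.

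Beyond the family, 60 listed genes of the pathway (other ligands, sheddases, adaptors and kinases, scaffolds, feedback regulators and transcriptional readouts) gave 372 tested gene and class pairs. EdgeR called 0 pairs in hRPGR bleb minus uninjected area, 6 in mScarlet bleb minus uninjected area (3 higher and 3 lower, 1.61% against 1.02% of all genes), 0 in mScarlet bleb minus hRPGR bleb and 0 between eyes. DESeq2 called 1 (0.238% against 0.17% of all genes), 10 (2.69% against 3.19%), 1 (0.235% against 0.471%) and 1 (0.230% against 0.0461%) in the same order, so the share in mScarlet bleb minus uninjected area lay above that of all genes with edgeR and below it with DESeq2. The readouts JUN and FOS, subunits of the AP-1 factor, rose in rods of the mScarlet blebs. JUN stood at 27.1 and 45.95 TMM-scaled CPM in the right and left uninjected areas, 241 and 88.4 CPM in the hRPGR blebs and 291 and 451 CPM in the mScarlet blebs (log2 3.35 ± 0.53, edgeR adjusted p 0.0458). FOS stood at 193 and 377 CPM, 1923 and 812 CPM, and 1966 and 2191 CPM in the same order (log2 2.87 ± 0.48, adjusted p 0.0498). The rod-like cells of these areas lay in different clusters, as given above. Described without a test after seeing the data, 3 rod-like clusters had at least 10 cells in all 6 NHP2 libraries. In cluster 50 JUN stood at 45.3 and 76.0 CPM in the uninjected areas (36 and 94 cells) and at 71.9 and 92.9 CPM in the mScarlet blebs, and in cluster 41 at 526 and 660 CPM (13 and 23 cells) against 626 and 452 CPM, so both pairs overlapped. FOS stood at 404 and 805 CPM against 917 and 965 CPM in cluster 50 and at 2105 and 3180 CPM against 4389 and 4050 CPM in cluster 41, without overlap. In cluster 11, with 2 to 17 JUN UMIs in each of these libraries, JUN stood at 25.6 and 29.6 CPM against 36.0 and 59.9 CPM and FOS at 37.2 and 129 CPM against 144 and 209 CPM, without overlap.

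Of the listed feedback regulators, SPRED1 and LRIG3 were called. In cone-like cells SPRED1, which restrains RAS signalling, fell from 182 and 206 CPM in the uninjected areas to 103 and 70.3 CPM in the mScarlet blebs (log2 -1.15 ± 0.18, edgeR adjusted p 0.0181), with 170 and 193 CPM in the hRPGR blebs. LRIG3, of a family of membrane proteins that regulate ERBB receptors, rose in cone-like cells from 10.1 and 11.6 to 22.5 and 22.2 CPM (log2 1.04 ± 0.21, edgeR adjusted p 0.0422, DESeq2 adjusted p 0.0898), with 21.1 and 15.1 CPM in the hRPGR blebs, and fell in myeloid-like cells from 32.1 and 27.9 to 7.28 and 8.31 CPM, with 11.9 and 20.3 CPM in the hRPGR blebs (log2 -1.93 ± 0.37, adjusted p 0.0306). DLG4, a synaptic scaffold that binds ERBB4, fell in myeloid-like cells from 43.5 and 78.1 to 24.5 and 25.6 CPM, with 42.8 and 42.4 CPM in the hRPGR blebs (log2 -1.28 ± 0.28, adjusted p 0.0473). The uninjected levels rested on 17 and 15 LRIG3 UMIs and 23 and 42 DLG4 UMIs in 84 and 82 myeloid-like cells. The paper sets homeostatic myeloid cells, seen in all areas, apart from myeloid cells seen in the AAV8 blebs. The part of this make-up was not tested. Rod-like cells held 236 to 355 CPM of DLG4, and the part of free RNA was not tested. DESeq2 called 5 of the 6 pairs that edgeR called and not LRIG3 in cone-like cells. With the eye as a block, which pairs areas of the same eye, 1 of the 6 calls remained, LRIG3 in myeloid-like cells (adjusted p 0.0295), and the other 5 had adjusted p values of 0.0521 (SPRED1), 0.0522 (DLG4), 0.0982 (LRIG3 in cone-like cells), 0.125 (JUN) and 0.128 (FOS). The count fell to 0 without the left uninjected or the left mScarlet library and to 1 without the right mScarlet library, and it rose to 14 and 13 without the right and left hRPGR libraries.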

How the data were processed

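Per the file headers and values, the authors deposited unfiltered UMI counts per gene and barcode, made with Cell Ranger on a custom Mmul_10 reference with 3 transgene features. Intron counting and strand settings are not given in the sources used here. Coordinates are RefSeq whole-gene spans of Mmul_10, and the counts do not resolve exons.

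Cells were barcodes with 1500 UMIs or more, 300 genes or more and no more than 20% of UMIs from mitochondrial genes. The automatic doublet threshold marked 0.963% of cells but under 0.5% in 6 libraries, so the top-scoring cells were set aside instead, 0.8% for every 1000 cells of a library. Cells were clustered with scanpy 1.11.5 (3000 variable genes, 40 components, 15 neighbours, resolution 2) without SoupX or Harmony, which the study used. Classes were named from fixed markers (3 or more raised 4-fold, and a marker score 1.5 times the runner-up, a ratio set after seeing the clusters). A class marker also had to be among the leading genes of the cluster, and no other class could have more markers there. Clusters with a doublet share over 30% or a haemoglobin gene (HBA or HBB) among the leading genes stayed unnamed. By these rules clusters 4, 19, 29, 39 and 54, which scored highest for rod markers, were left out of the rod-like class. Differences from the study may therefore come from rebuilt names. "Amacrine-like" is 1 cluster, and other clusters with amacrine markers stayed unnamed.

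For classes with 20 cells or more in each of 6 NHP2 libraries, edgeR 4.0.16 compared UMI counts summed per library and class by its quasi-likelihood test (all areas in 1 fit, TMM factors, filterByExpr, Benjamini-Hochberg adjusted p of 0.05), after a check on simulated data. DESeq2 1.42.0, the study's tool, and the alternatives of the closing section were also run. Named genes were all 8 members, the pathway genes that were called and the 5 genes most like ERBB4 by correlation in each of 2 comparisons. Some leading genes of the clusters rich in ERBB4 were named as well. The members and lists were chosen with earlier results of these data known. Replicate numbers pair the libraries because areas come from the same eye, although the correlations of same-eye deviations across genes ran from -0.42 to 0.31 and were not all positive. The main area fits did not use this pairing, and the eye entered them as a block only in an alternative.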

Additional observations from a re-analysis of the deposited data

Results flagged for a closer look

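The comparisons above use named clusters, and 3 unnamed clusters that scored highest for amacrine markers held members well above the free RNA of the same libraries. ERBB4 had a mean of 4117 CPM over 7 libraries in cluster 31 (2342 to 7662 CPM), which has PTPRT, ERBB4 and CACNA2D3 among its leading genes. EGFR had a mean of 802 CPM over 8 libraries in cluster 32 (553 to 1236 CPM), and NRG2 had 409 CPM there. NRG4 had a mean of 62.8 CPM over 8 libraries in cluster 33 (47.2 to 80.0 CPM), above its mean in every named class.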

How the results depend on the processing

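Of 436 values recomputed for 45 results, 377 were labelled the same, 40 had moved and 19 had come under the threshold. The first label covered counts that changed little, levels, shares and log2 differences within the error, and genes that kept their direction and stayed uncalled. A change of direction was looked for only in genes with an unadjusted edgeR p under 0.05 in the main fit, and none had one. With the eye as a replicate block, members called stayed at 0 in the 3 area comparisons and the pathway count for mScarlet bleb minus uninjected area fell from 6 to 1, and the block changed no other call. Members called in hRPGR bleb minus uninjected area became 1 without the filter on low counts (NRG4 in cone-like cells). In mScarlet bleb minus uninjected area they became 4 with DESeq2, 2 without the filter, 2 with only the compared groups fitted and 0 to 2 with 1 library left out (ERBB4 in Müller-like cells without the right uninjected library, NRG1 in rod-like and NRG3 in cone-like cells without either hRPGR library). In mScarlet bleb minus hRPGR bleb they became 1 without the filter, 1 with only the compared groups and 0 to 1 with 1 library left out (EGFR in horizontal-like cells without either uninjected library). Between eyes they became 1 without the filter (ERBB4 in bipolar-like cells) and 0 to 1 with 1 library left out. Pathway calls became 1 with DESeq2 and 0 to 3 with 1 library left out in hRPGR bleb minus uninjected area (3 without the left hRPGR library), 10 with DESeq2 and 0 to 14 in mScarlet bleb minus uninjected area, and 1 with DESeq2 and 0 to 3 in mScarlet bleb minus hRPGR bleb (3 without the right hRPGR library). The causes were not tested.

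ERBB4 in cone-like cells kept its order of areas. With 1 library left out, the log2 differences ran from 3.02 to 3.69 (hRPGR minus uninjected), 0.77 to 1.47 (mScarlet minus uninjected) and -2.54 to -2.00 (mScarlet minus hRPGR), and with doublets kept the last was -2.43. Group levels ran from 5.19 to 8.28, 61.7 to 72.5 and 11.6 to 16.5 TMM-scaled CPM. Counting unnamed clusters with cone markers as cone-like, a choice made once the data had been seen, moved the hRPGR mean to 63.4. Shares of cells with an ERBB4 UMI depended on depth: they were 7.65%, 24.5% and 14.0% without thinning and 5.38%, 22.0% and 6.53% at 10000 UMIs in uninjected areas, hRPGR blebs and mScarlet blebs, and with 1 library left out they ran from 1.43% to 2.25%, 9.04% to 13.4% and 1.49% to 4.10%. Levels near those of free RNA could not be told apart from background at this depth.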
